A study of Mus musculus with 29 samples.

Results

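Meis1, Pbx3, Myb, Flt3 and Mef2c, a group of 5 genes named as partners of Hoxa9 or as drivers of blood progenitors, were followed over the arrays of mice with a tamoxifen-dependent MLL-ENL fusion. The genes were chosen by symbol: every probe set annotated to exactly 1 of the 5 symbols was taken, which gave 11 of 22690 probe sets and 5 of 12394 genes. The brightest probe set of a gene within a tissue gave its main level. MLL-ENL-ERtm is the leukaemia fusion MLL-ENL made dependent on tamoxifen by an attached domain of the oestrogen receptor that binds the drug. All mice, wild type included, received tamoxifen at 300 mg/kg chow. Bone marrow of fusion mice was profiled in a proliferation state with little DNA damage response (7 months of tamoxifen, n = 4), in a transition state with less division and a strong response (7 to 8 months, n = 4) and in senescence (8 months, n = 3), beside wild-type marrow (7 or 8 months, n = 4). Spleen of fusion mice was profiled at an early stage with division and a damage response (7 months, n = 3), in progression with partial senescence (9 or 10 months, n = 3) and at a terminal stage labelled as dividing with little or no damage response (19, 21 and 23 months, n = 3), beside wild-type spleen (8, 9, 11, 11 and 24 months, n = 5). The labels call the samples biological replicates. The labels name neither the promoter that drives the fusion nor the strain or sex of the mice.

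MLL fusions keep the posterior Hoxa genes active in blood progenitors, and the Hoxa9 protein binds DNA together with TALE homeodomain proteins. Meis1 and Pbx3 are such TALE partners, and Meis1 with Hoxa9 transforms mouse marrow cells. Myb is a transcription factor needed for the self-renewal of progenitors and for MLL leukaemia cells, Flt3 is a receptor tyrosine kinase of early progenitors and of dendritic cell precursors, and Mef2c is a MADS-box factor that is active in lymphoid-primed progenitors and B lymphocytes and is raised in some MLL leukaemias.

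The windows around the transcription starts of Meis1, Myb and Mef2c are shown because these genes, all of the same disease, differed in direction or in tissue. Each window runs from 250 bases before to 50 bases after a start, is given 5′ to 3′ on the strand of the gene, and has its CpG dinucleotides in capitals. The sequences are from RefSeq on GRCm38.p6, and the table of windows used here held 6 windows of 4 of the 5 genes, with none for Pbx3. The start of the Meis1 window lies 682 bases inside the annotated 5′ end of the gene.
Meis1, chr11:19018920-19019219, minus strand: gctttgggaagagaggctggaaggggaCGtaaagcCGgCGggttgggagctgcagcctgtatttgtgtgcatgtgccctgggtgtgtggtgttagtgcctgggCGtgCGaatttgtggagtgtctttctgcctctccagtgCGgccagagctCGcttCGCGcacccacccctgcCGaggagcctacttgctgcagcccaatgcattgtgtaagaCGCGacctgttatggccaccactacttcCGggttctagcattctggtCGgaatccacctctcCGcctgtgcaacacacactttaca
Myb, chr10:21160935-21161234, minus strand: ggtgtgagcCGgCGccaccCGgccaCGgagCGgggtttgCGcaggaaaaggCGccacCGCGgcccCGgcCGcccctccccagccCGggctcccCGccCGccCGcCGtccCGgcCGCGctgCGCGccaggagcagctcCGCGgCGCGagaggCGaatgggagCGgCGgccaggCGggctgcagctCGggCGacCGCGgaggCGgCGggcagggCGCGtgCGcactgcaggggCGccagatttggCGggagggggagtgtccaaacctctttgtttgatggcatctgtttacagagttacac
Mef2c, first of 3 starts, chr13:83503784-83504083, plus strand: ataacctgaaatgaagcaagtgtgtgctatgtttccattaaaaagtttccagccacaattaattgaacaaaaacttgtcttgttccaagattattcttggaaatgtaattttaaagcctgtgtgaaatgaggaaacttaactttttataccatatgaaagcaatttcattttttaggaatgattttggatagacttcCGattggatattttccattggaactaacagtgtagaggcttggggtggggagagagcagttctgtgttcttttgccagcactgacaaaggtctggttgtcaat
The Myb window held 40 CpG and was 75% G or C, and 3.91% of the 32851 RefSeq windows of the same length held at least as many. The Meis1 window held 15 CpG (34.6% of windows held at least as many) and the Flt3 window 18 (29.7%). The 3 Mef2c windows held 1, 10 and 4 CpG, against a median of 7 over all windows, and the window printed was 35.7% G or C. On both strands, the Pbx and Hox motif TGATTNAT was in 0 of the 6 windows (3.22% of all windows hold it), the Meis motif TGACAG in 0 (19.2%) and the Myb motif AACNG in 5 (80.3%). These matches describe the letters of the windows alone.

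The fusion could be read from Esr1, the oestrogen receptor gene, which lay between 8.13 and 8.66 in fusion marrow, against 5.60 to 6.65 in wild-type marrow. In spleen Esr1 lay between 7.03 and 7.71 in fusion mice, against 4.70 to 5.48 in wild-type mice. Mpo, a granulocyte precursor enzyme, was at 14.81 to 14.88 in wild-type marrow, and Ms4a1, the B lymphocyte antigen CD20, at 12.79 to 13.03 in wild-type spleen, so both tissues carried genes that define them. Mki67, a gene of dividing cells, had its lowest spleen mean at the terminal stage, which is labelled as dividing. It averaged 13.25 ± 0.35 in early, 13.21 ± 0.08 in progression and 12.49 ± 0.11 in terminal spleen. Wild-type spleen was at 12.95 ± 0.11 (SD, n = 3, 3, 3 and 5), and the terminal difference of -0.45 ± 0.14 was called (adjusted p = 0.018 by limma). In marrow, senescence minus proliferation was -0.14 ± 0.23 and not called. These are levels of whole tissue, and which cells divided was not tested. All levels are log2 probe set signals, a difference of 1 being a doubling, and the medians of the marrow arrays (8.11 to 8.29) lay above those of the spleen arrays (6.73 to 6.90). Levels were therefore set side by side within a tissue only. Levels of different probe sets are not compared. With arrays there is no read depth, and precision rests on how many there are. A few arrays held RNA of adjoining tissue. Set against the mean of the wild-type spleens, a pancreas list of 8 genes was at 0.93 in early spleen 1, at 5.17 in wild-type spleen 3 and at 0.50 in wild-type spleen 5, and below 0 in the remaining spleens. A list of 11 adipocyte and muscle genes was at 2.79 in proliferation marrow 1, relative to wild-type marrow. Results are given with and without these arrays where a call changed.

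In the spleen, Meis1, Pbx3 and Myb rose and Mef2c fell in fusion mice at every stage, and Flt3 did not pass the test. In the marrow Meis1 alone was called, and only over all fusion arrays together. Pbx3 differed there by 0.99, beside 0.88 for Meis1, and was not called. A call is an adjusted p under 0.05 from limma, adjusted by Benjamini-Hochberg over the 12394 genes. Of the 5 genes, 3 were called higher and 1 lower in each of the comparisons with wild-type spleen. Over all genes, 7.35% were called higher and 8.55% lower in early spleen, 9.29% and 9.96% in progression, 18.1% and 16.3% in terminal spleen, and 16% and 16.4% over all 9 fusion spleens. In marrow 0 of the 5 genes were called in proliferation (0.282% of all genes, in either direction), 0 in transition (0.42%), 0 in senescence (0.0484%) and 1 over all 11 fusion marrows (0.662%). At an unadjusted p under 0.05, 3 of the 5 were past the threshold in proliferation (9.9% of all genes), 1 in transition (10.5%) and 2 in senescence (6.36%). The median difference of the 5 genes over all fusion spleens was 1.02, beside 0.04 over all genes, and in marrow 0.27, beside 0.02. The stages of a tissue share their wild-type arrays, so their differences from wild type are not independent of each other. In whole tissue, a gene's level falls alike when fewer cells carry it and when each cell holds less of it, and these cannot be told apart.

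**Figure D1:**
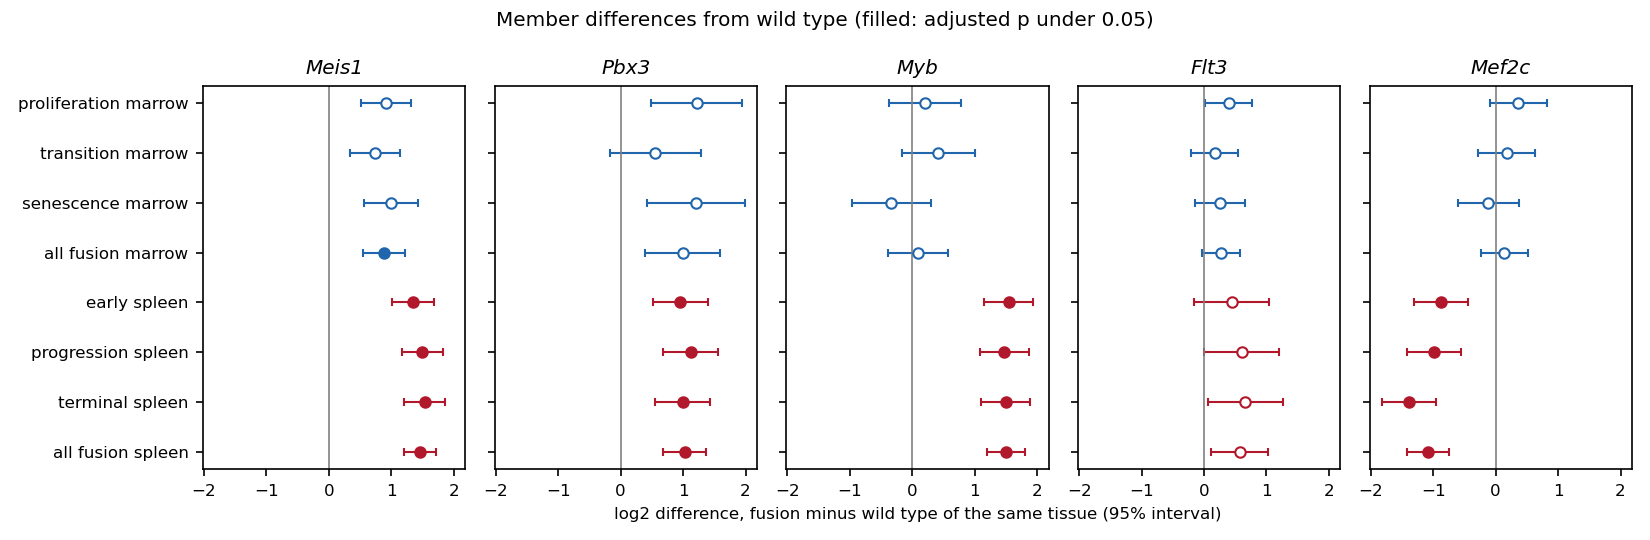
Log2 difference from wild type of the same tissue (x axis, fusion minus wild type) for Meis1, Pbx3, Myb, Flt3 and Mef2c, 1 panel a gene. Rows are the 3 marrow states, all fusion marrow, the 3 spleen stages and all fusion spleen; whiskers are 95% intervals from limma and filled points have an adjusted p under 0.05. Filled points stand right of 0 for Meis1, Pbx3 and Myb in spleen, left of 0 for Mef2c in spleen, and in marrow for Meis1 over all fusion arrays alone.

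Meis1, the homeodomain partner of Hoxa9, rose in the spleen of fusion mice. Its levels were 6.51, 6.45 and 6.60 in early spleen, 6.61, 6.86 and 6.55 in progression and 6.42, 6.89 and 6.82 in terminal spleen, against 5.57, 4.87, 5.23, 5.01 and 5.21 in wild-type spleen. Every fusion spleen lay above every wild-type spleen. Of all genes, 24.9% had early arrays wholly beyond the wild-type arrays on 1 side, 23.9% progression arrays, 39.6% terminal arrays and 12.9% all 9 fusion arrays, 6.21% higher and 6.66% lower. The highest wild-type value, 5.57, was that of the mouse on tamoxifen for 24 months. The difference was 1.34 ± 0.16 at the early stage (SE, n = 3 and 5, adjusted p = 0.00012 by limma), 1.50 ± 0.16 in progression (4.3e-05), 1.53 ± 0.16 at the terminal stage (6e-06) and 1.46 ± 0.12 over the 9 fusion spleens (1.4e-06). No fold is given here, since the wild-type values were close to the lower quartile of all signals on the spleen arrays (4.56 to 4.81), and there a log2 difference understates a change. In marrow Meis1 stood at 9.64, 9.45, 9.54 and 9.37 in proliferation, 9.17, 9.75, 9.44 and 8.94 in transition and 9.37, 10.10 and 9.28 in senescence, against 8.55, 8.74, 8.47 and 8.60 in wild-type marrow. All 11 fusion marrows lay above all 4 wild-type marrows, as did 0.71% of genes on 1 side or the other. The rise over all fusion marrow was 1.84-fold (0.88 ± 0.16, n = 11 and 4, adjusted p = 0.018 by limma). By state the differences were 0.91 ± 0.19 in proliferation (adjusted p = 0.068), 0.74 ± 0.19 in transition (0.15) and 0.99 ± 0.20 in senescence (0.17), none past the threshold. Each state lay wholly above wild type, as 9.75%, 3.8% and 6.04% of all genes lay on 1 side in proliferation, transition and senescence. The call over all fusion marrow was lost without wild-type marrow 1 (adjusted p = 0.073), 3 (0.11) or 4 (0.078), with differences of 0.87, 0.84 and 0.89.

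Pbx3, the TALE protein that dimerizes with Hoxa9 and Meis1, also rose in the spleen. It stood at 8.80, 8.63 and 8.27 in early spleen, 8.93, 8.24 and 9.05 in progression and 9.01, 8.60 and 8.21 in terminal spleen, against 7.48, 7.67, 7.74, 7.74 and 7.44 in wild-type spleen. All 9 fusion spleens lay above the 5 wild-type spleens, and the fusion arrays varied more among themselves than the wild-type arrays did (SD 0.27 to 0.44 by stage, against 0.15). The rise was 1.93-fold at the early stage (0.95 ± 0.21, adjusted p = 0.0059), 2.18-fold in progression (1.12 ± 0.21, 0.0017), 1.99-fold at the terminal stage (0.99 ± 0.21, 0.0018) and 2.03-fold over all fusion spleens (1.02 ± 0.16, 0.0002, all by limma). Without the 3 arrays that carried pancreas RNA the early difference was 0.82 ± 0.28 and lost its call (adjusted p = 0.13 by limma), while progression, terminal and all fusion spleens kept theirs. In marrow Pbx3 was at 9.62, 8.48, 9.73 and 9.24 in proliferation, 9.47, 8.93, 8.08 and 7.95 in transition and 8.98, 9.07 and 9.73 in senescence, against 7.72, 7.85, 8.22 and 8.41 in wild-type marrow. Proliferation and senescence lay wholly above wild type and transition overlapped it, with 2 of its 4 arrays inside the wild-type range. The differences of 1.22 ± 0.34 (adjusted p = 0.19), 0.56 ± 0.34 (0.61) and 1.21 ± 0.37 (0.52), and of 0.99 ± 0.28 over all fusion marrow (0.14, by limma), did not pass the threshold. The differences in proliferation and senescence were as large as those in spleen and the one in transition was smaller, and all had larger standard errors than in spleen.

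**Figure D2:**
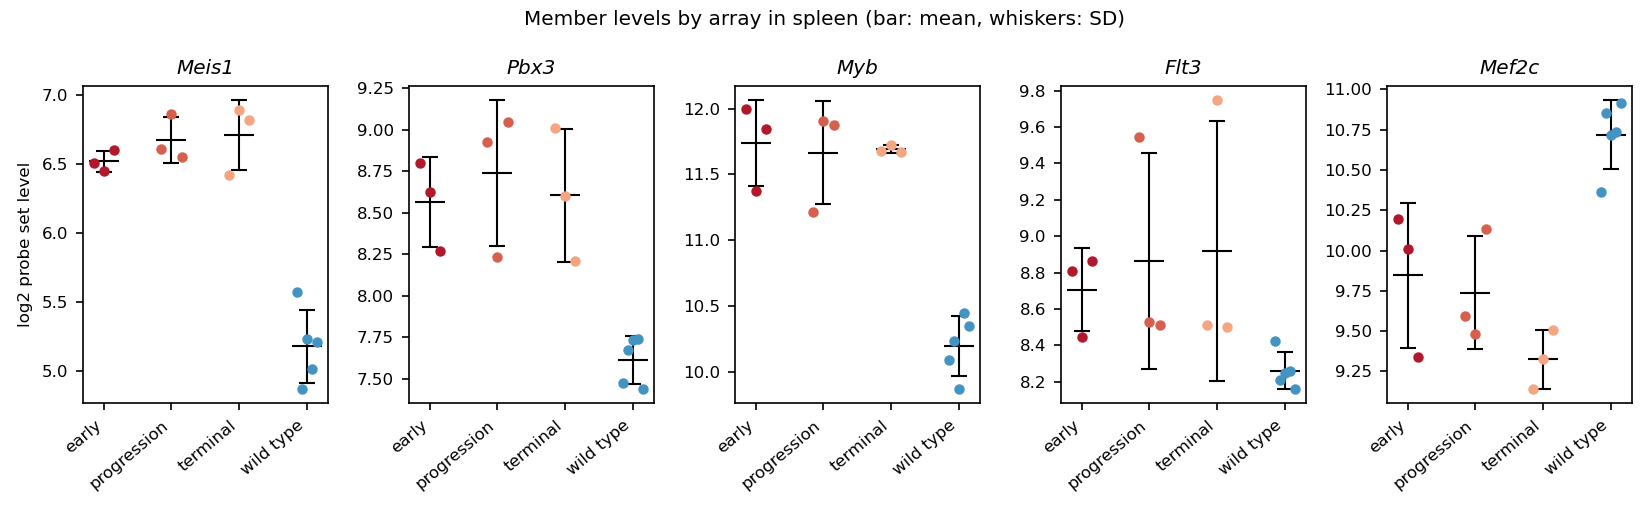
Log2 level (y axis) of the 5 genes in each of the 14 spleen arrays, 1 panel a gene with its own scale, by stage with wild type on the right. Bars are means and whiskers SD (n = 3, 3, 3 and 5). Fusion points lie above all wild-type points for Meis1, Pbx3, Myb and Flt3 and below them for Mef2c.

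Myb, the progenitor transcription factor, rose in spleen and was not called in marrow. In spleen it stood at 12.00, 11.38 and 11.84 at the early stage, 11.22, 11.91 and 11.88 in progression and 11.68, 11.73 and 11.67 at the terminal stage, against 10.09, 10.23, 9.87, 10.45 and 10.35 in wild-type mice. Every fusion spleen was above every wild-type spleen by at least the gap between 11.22 and 10.45, and the 3 terminal spleens were nearly alike (SD 0.03). The rise was 2.91-fold at the early stage (1.54 ± 0.18, adjusted p = 0.00013), 2.77-fold in progression (1.47 ± 0.18, 0.00013), 2.82-fold at the terminal stage (1.49 ± 0.18, 2.8e-05) and 2.83-fold over all fusion spleens (1.50 ± 0.14, 3.6e-06, all by limma). In marrow Myb was among the bright probe sets in every group, at 13.22, 13.91, 14.10 and 13.72 in proliferation, 13.47, 14.34, 14.11 and 13.87 in transition and 12.51, 13.43 and 13.66 in senescence, against 13.59, 13.01, 13.69 and 13.85 in wild type. All 3 states overlapped wild type. The differences were 0.20 ± 0.27, 0.41 ± 0.27 and -0.33 ± 0.29, and over all fusion marrow 0.09 ± 0.23 (95% interval -0.39 to 0.58, adjusted p = 0.92 by limma). That interval leaves room for a change in marrow, but its upper end lies below the lower end of the spleen interval (1.20).

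Flt3, the receptor of early progenitors, had higher levels in fusion spleens but was not called at any stage. Its values were 8.81, 8.44 and 8.86 in early spleen, 9.55, 8.53 and 8.51 in progression and 8.51, 9.75 and 8.50 in terminal spleen, against 8.43, 8.21, 8.25, 8.26 and 8.16 in wild-type spleen. Progression spleen 1 (9.55) and terminal spleen 2 (9.75) stood well above the other fusion spleens, while the lowest fusion value, 8.44, was just above the highest wild-type value, 8.43, that of the mouse on tamoxifen for 24 months. No fusion spleen fell inside the wild-type range. As given above for Meis1, 6.21% of all genes had all 9 fusion spleens above every wild-type spleen. The differences were 0.45 ± 0.28 (adjusted p = 0.32), 0.60 ± 0.28 (0.15), 0.66 ± 0.28 (0.086) and 0.57 ± 0.21 over all fusion spleens (0.056, all by limma). In marrow Flt3 was at 9.74, 10.17, 10.18 and 10.04 in proliferation, 10.28, 9.35, 9.63 and 9.97 in transition and 9.93, 9.78 and 9.96 in senescence, against 9.78, 9.55, 9.47 and 9.75 in wild type. Each state overlapped wild type, with differences of 0.40 ± 0.17 (adjusted p = 0.46 by limma), 0.17 ± 0.17 (0.80) and 0.26 ± 0.19 (0.89).

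Mef2c, the MADS-box factor of lymphoid cells, fell in the spleen, and was the only one of the 5 genes that was lower there. It stood at 10.19, 10.01 and 9.34 in early spleen, 9.60, 9.48 and 10.14 in progression and 9.14, 9.33 and 9.51 in terminal spleen, against 10.37, 10.85, 10.72, 10.74 and 10.92 in wild-type spleen. All fusion spleens lay below all wild-type spleens, and the lowest wild-type value, 10.37, belonged to the mouse on tamoxifen for 24 months. That mouse also had the wild-type value nearest the fusion spleens for Meis1 and Flt3. For Pbx3 (7.48) and Myb (10.09) it lay within the range of the other wild-type spleens. The level fell by 0.87 ± 0.20 on the log2 scale at the early stage (adjusted p = 0.0093), by 0.98 ± 0.20 in progression (0.0037), by 1.39 ± 0.20 at the terminal stage (0.00012) and by 1.08 ± 0.15 over all fusion spleens (0.00011, all by limma), the last being 2.12-fold lower. Without the 3 arrays that carried pancreas RNA the early difference was -0.98 ± 0.25 with an adjusted p of 0.052 by limma, and under that alternative progression and terminal spleen kept theirs. In marrow Mef2c was at 11.67, 11.52, 11.50 and 11.21 in proliferation, 10.83, 11.47, 11.45 and 11.39 in transition and 10.42, 11.24 and 11.32 in senescence, against 11.27, 10.68, 11.30 and 11.19 in wild type. The groups overlapped throughout. The differences of 0.36 ± 0.21, 0.18 ± 0.21 and -0.12 ± 0.23, and of 0.14 ± 0.18 over all fusion marrow (95% interval -0.24 to 0.52, adjusted p = 0.83 by limma), did not pass.

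**Figure D3:**
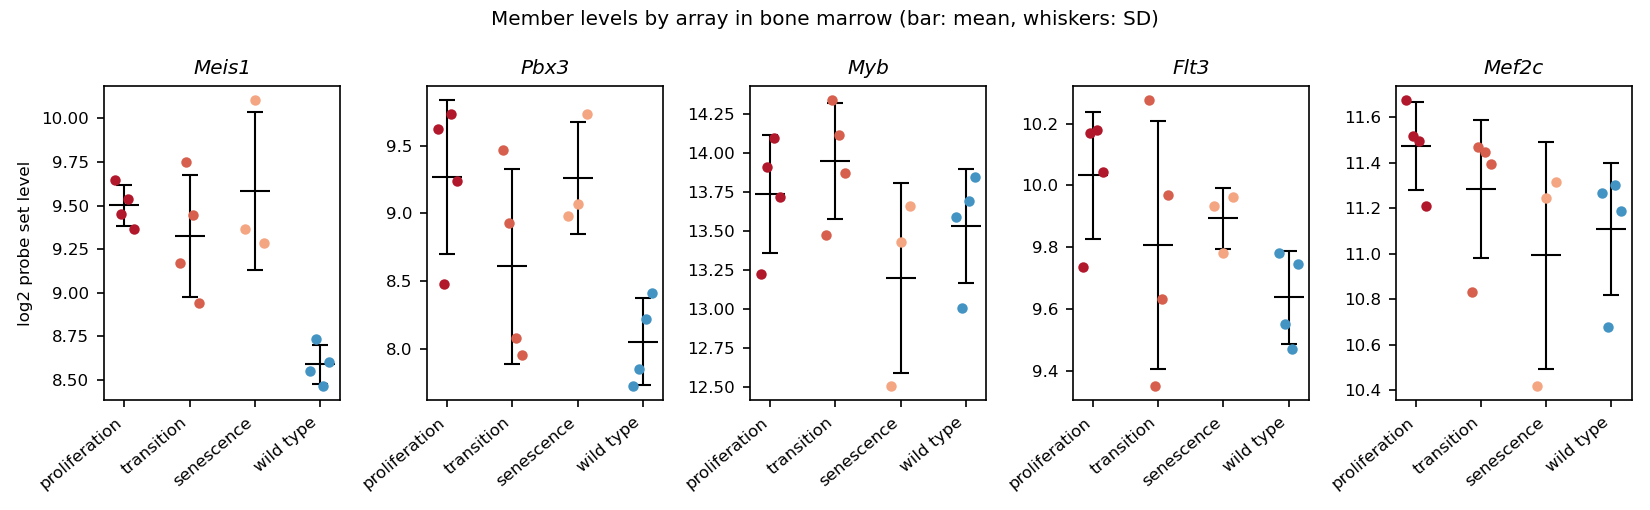
Log2 level (y axis) of the 5 genes in each of the 15 marrow arrays, 1 panel a gene with its own scale, by state with wild type on the right. Bars are means and whiskers SD (n = 4, 4, 3 and 4). Fusion points of all 3 states lie above wild type for Meis1, those of proliferation and senescence for Pbx3, and for Myb, Flt3 and Mef2c they overlap it in each state.

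The states of a tissue were compared to ask whether these genes differed between them. In spleen the stages also differ in months of tamoxifen (7 in early, 9 or 10 in progression, 19, 21 and 23 in terminal). Stage and months therefore cannot be told apart there. Proliferation marrow was at 7 months of tamoxifen and senescence marrow at 8, so state and months cannot be told apart between them either. In marrow none of the 5 genes, and 0% of all genes, were called in transition against proliferation, in senescence against transition (0%) or in senescence against proliferation (0%). At an unadjusted p under 0.05 these comparisons held 266, 380 and 125 genes. The nearest among the 5 genes were Myb in senescence against transition (-0.75 ± 0.29, unadjusted p = 0.023, adjusted p = 1 by limma) and Mef2c in senescence against proliferation (-0.48 ± 0.23, unadjusted p = 0.055). Senescence marrow 1 had the lowest Myb (12.51) and the lowest Mef2c (10.42) of the 15 marrows. In spleen 0% of all genes were called in progression against early, 5.86% in terminal against progression and 6.61% in terminal against early, and none of the 5 genes was among them. Mef2c was 0.52 ± 0.23 lower in terminal than in early spleen (adjusted p = 0.17 by limma). Leaving out early spleen 3, whose Mef2c was already at 9.34, gave -0.78 ± 0.20, which was called (adjusted p = 0.020 by limma), as were 17.4% of all genes without that array. The 95% intervals of terminal minus early were -0.18 to 0.56 for Meis1, -0.45 to 0.53 for Pbx3 and -0.49 to 0.39 for Myb. Changes of a size within these intervals remain possible, and the size that 3 arrays each could detect was not computed.

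The response of the 2 tissues was compared as a difference of differences, fusion minus wild type in spleen less the same in marrow. Over all genes 5.47% were called higher in spleen by this measure and 8.6% lower, and of the 5 genes 1 was called in each direction. The response of Myb was 1.41 ± 0.27 higher in spleen (95% interval 0.84 to 1.97, adjusted p = 0.00085 by limma) and that of Mef2c 1.22 ± 0.24 lower (-1.72 to -0.73, 0.00095), the value for Mef2c being taken from a different probe set in each tissue. Meis1 responded by 0.58 ± 0.20 more in spleen, which did not pass (adjusted p = 0.055). For Pbx3 the difference was 0.03 ± 0.33 with an interval of -0.66 to 0.72, and for Flt3 0.30 ± 0.27 (-0.26 to 0.85). The labels do not say if a mouse gave both tissues, and each array was treated as a mouse of its own.

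Myb had 3 probe sets and Mef2c 5, while Meis1, Pbx3 and Flt3 had 1 each. All 3 Myb probe sets were called higher and all 5 Mef2c probe sets lower at each spleen stage, and none of the 8 was called in marrow. The shares given above are of genes, and no share of all probe sets stands beside the counts in this paragraph. Probe sets of the same gene were read on the same arrays, so they are not separate support. Between spleen stages 1 of the 8 was called, the Mef2c probe set that was brightest in marrow, which was 0.79 ± 0.20 lower in terminal than in progression spleen (adjusted p = 0.037 by limma). Over all fusion spleens the Myb probe sets differed by 1.33 to 1.50 and the Mef2c probe sets by -1.42 to -1.08, and over all fusion marrow by 0.05 to 0.25 and by -0.12 to 0.33. The brightest Mef2c probe set differed between marrow and spleen, so the difference between tissues above takes the response in each tissue from a different probe set. With the one brightest in spleen used in both tissues it was -0.96 ± 0.32 and just missed the threshold (adjusted p = 0.053 by limma, over all probe sets). With the other 4 probe sets in both tissues it ran from -1.75 to -1.23, each past the threshold. The 3 Myb probe sets gave 1.11 to 1.41 between tissues, each past the threshold.

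**Figure D4:**
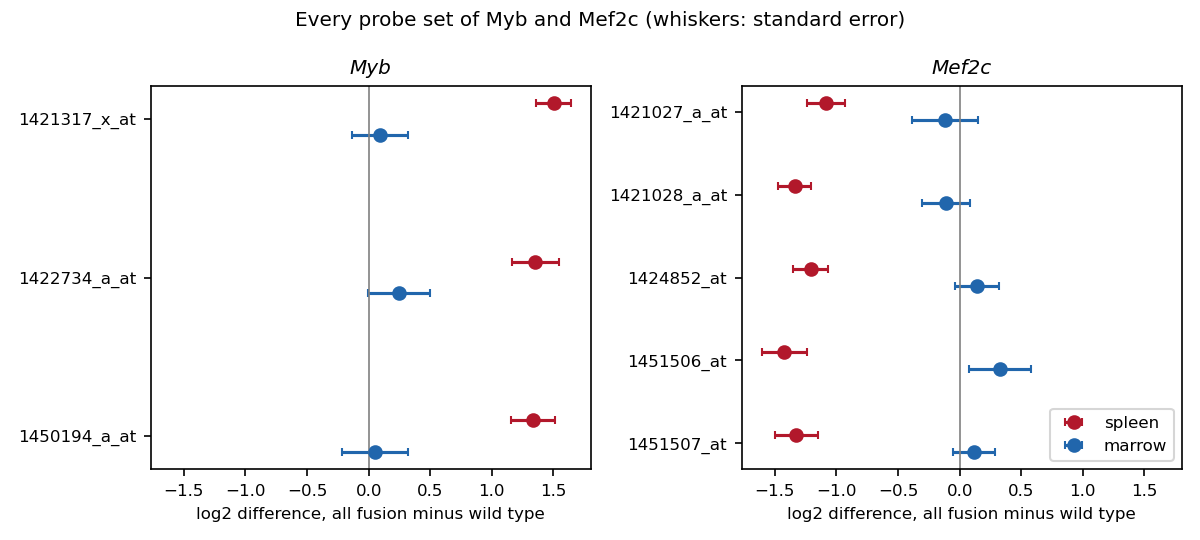
Log2 difference, all fusion minus wild type (x axis), for each of the 3 Myb and 5 Mef2c probe sets (rows), in spleen (red, upper point) and marrow (blue, lower point), with standard errors as whiskers. All spleen points of Myb lie right of 1.3 and all spleen points of Mef2c left of -1, and marrow points lie near 0.

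Other genes of the same pathways were counted from lists of textbook members, to be read beside the 16% of all genes that rose and the 16.4% that fell over all fusion spleens, and the 0.662% called over all fusion marrow. Of 10 TALE genes, 3 rose over all fusion spleens (Meis1, Pbx3 and Pbx2, by 0.61 ± 0.11) and 2 fell (Tgif1, a TALE repressor, by 0.91 ± 0.10, and Meis3, by 0.27 ± 0.09). The median was -0.03, and in marrow only Meis1 was called, as higher. The other 5 TALE genes did not pass the test in spleen. Of 14 Hoxa and Hoxb genes, 8 rose over all fusion spleens and none fell (median 0.41). Hoxa9 itself was 4.86 ± 0.31 higher, Hoxa5 1.90 ± 0.23, Hoxa10 2.43 ± 0.32 and Hoxa7 1.26 ± 0.17. The same 4 genes were the ones called higher over all fusion marrow, Hoxa9 by 2.03 ± 0.16, Hoxa10 by 2.83 ± 0.21, Hoxa5 by 1.73 ± 0.15 and Hoxa7 by 0.66 ± 0.09. Hoxa9 and Meis1 were thus called in both tissues.

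Of 10 genes known as Myb targets, 6 rose and 3 fell over all fusion spleens (median 0.57), and none was called in marrow (median 0.02). Elane, neutrophil elastase, rose by 4.12 ± 0.30, Mpo by 3.50 ± 0.26 and Cd34, a progenitor surface protein, by 2.18 ± 0.21, while Bcl2, a survival gene of lymphocytes and progenitors, fell by 0.90 ± 0.11. Elane and Mpo are also granulocyte precursor markers. Of 7 genes of the Myb family and its coactivators, 2 rose in spleen (Myb and Cebpb, 1.30 ± 0.23) and 1 fell (Crebbp, by 0.38 ± 0.11). Of 16 genes of Flt3 signalling, 0 rose and 3 fell in spleen, namely Pim2 (by 0.99 ± 0.17), Socs2 (by 0.90 ± 0.15) and Socs3 (by 1.37 ± 0.42), with a median of -0.09 and a share of falls near that of all genes (16.4%). Socs2 and Socs3 are feedback inhibitors that cytokine receptors induce and Pim2 is a survival kinase.

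Of 9 genes of the Mef2 family and its regulators, 4 fell in spleen, which were all 4 Mef2 genes, and 3 rose. Beside Mef2c, Mef2d fell by 0.57 ± 0.11, Mef2a by 0.44 ± 0.11 and Mef2b by 0.55 ± 0.16. The kinases Mapk7 and Mapk14, which phosphorylate Mef2 proteins, rose by 0.62 ± 0.10 and 0.40 ± 0.08, and Hdac5, which represses them, rose by 0.37 ± 0.11. Of 23 progenitor regulators, 9 rose and 5 fell in spleen (median 0.25), led by Cebpa (1.53 ± 0.12) and Spi1 (1.35 ± 0.14), both myeloid transcription factors, Cd34, and Prom1 (2.54 ± 0.29), a surface protein of progenitors. Of 18 genes of the MLL leukaemia programme outside the Hoxa cluster, which include all 5 genes described here, 7 rose and 6 fell in spleen, and in marrow 1 was called higher. Meis3, Mef2a, Mef2b, Hdac5, Igll1 and Vpreb1 were named after their values were seen, to complete their counts.

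Markers of several cell types moved in the same arrays, where 16% of all genes rose and 16.4% fell over all fusion spleens. In spleen 5 of 5 granulocyte precursor genes rose, with a list mean 2.97 to 4.41 above wild type in the fusion arrays, against -0.59 to 0.86 in the wild-type arrays, and 9 of 9 mature neutrophil genes rose. Of 14 B lymphocyte genes, 10 fell and 2, the surrogate light chain genes Igll1 and Vpreb1, rose over all fusion spleens. The B lymphocyte mean was -1.63 to -0.74 in early, -1.81 to -0.40 in progression and -2.95 to -1.57 in terminal spleen, against -0.17 to 0.24 in wild-type spleen, and Mef2c had its lowest mean (9.33) in the terminal spleens. Of 10 T and NK cell genes, 7 fell in spleen. In marrow 0 of 5 granulocyte precursor genes were called (list mean -0.30 to 0.65 in fusion arrays, -0.16 to 0.29 in wild type), while 9 of 14 B lymphocyte genes fell, with a mean of -2.11 to -1.02 in fusion marrow, against -0.78 to 0.29 in wild-type marrow. Other lists moved in spleen as well. The dendritic cell mean was -1.28 to -0.64 in early, -1.05 to -0.003 in progression and -2.08 to -0.25 in terminal spleen, against -0.18 to 0.11 in wild type, and 3 of its 8 genes fell over all fusion spleens. Of 11 monocyte and macrophage genes, 8 fell and 2 rose over all fusion spleens. At the terminal stage 8 of 9 erythroid, 6 of 10 endothelial and stroma and 3 of 8 megakaryocyte and platelet genes fell, where 16.3% of all genes fell, against 0, 1 and 0 at the early stage, where 8.55% of all genes fell. The part of these cell types in the differences of the 5 genes was not tested.

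**Figure D5:**
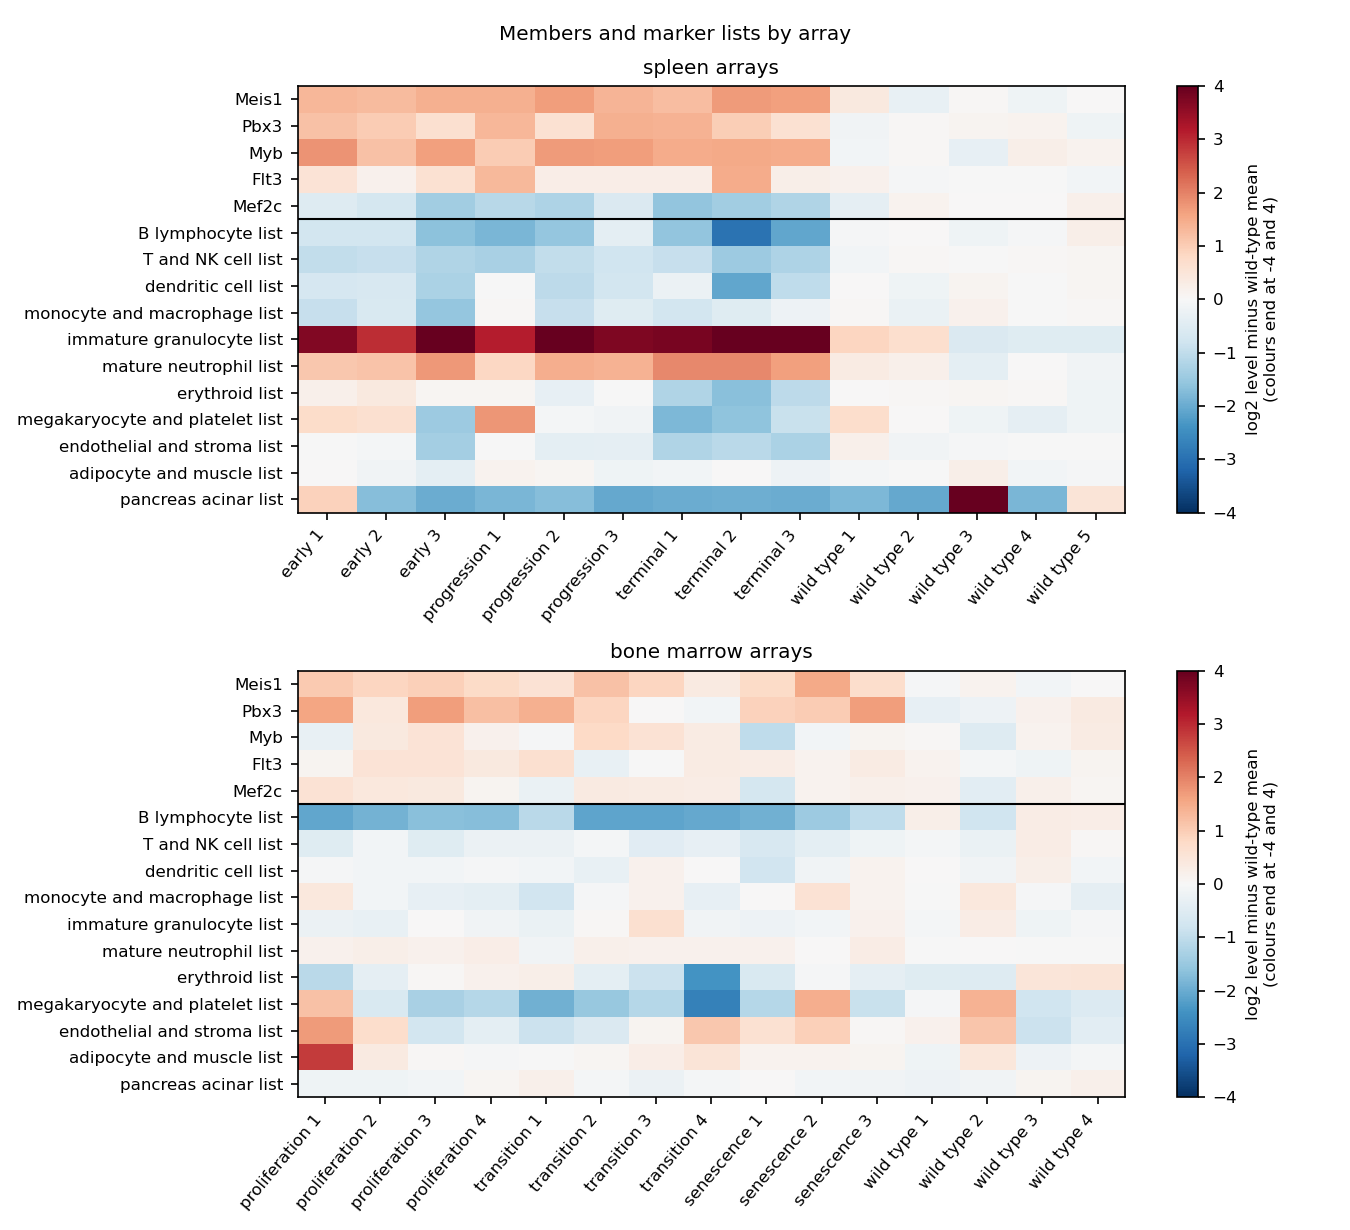
Level of the 5 genes and mean of each marker list (rows) in each spleen array (upper panel) and marrow array (lower panel), as log2 difference from the wild-type mean of the tissue, on a colour scale that ends at -4 and 4. Meis1, Pbx3 and Myb are red across the fusion spleens together with the granulocyte precursor and neutrophil rows. Mef2c is blue there together with the B lymphocyte and T and NK cell rows, and with most of the dendritic cell and monocyte and macrophage rows. In the marrow panel the B lymphocyte row is blue in all fusion arrays, while Mef2c is above its wild-type mean in some and below it in others.

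The genes whose arrays followed a member most closely were found by the root mean square difference of mean-centred log2 levels over the arrays of a tissue, for members with an SD over 0.5 there. Over the 14 spleens, Meis1 was followed by S100a1 (0.117), Cebpa (0.21) and Agtrap (0.211), where a flat gene would differ by 0.725. Myb was followed by Ankrd28 (0.163), Padi3 (0.177) and Tex2 (0.192), where a flat gene gives 0.755. Mef2c was nearest to Chd6 (0.160), Mylip (0.167) and Cd3e (0.187), the last a T cell receptor component, with 0.604 for a flat gene. Pbx3 was followed less closely, by Col5a1 (0.266), Tkt (0.275) and Abca7 (0.282), against 0.558. In marrow Pbx3 alone varied enough, and the differences of its nearest genes, S1pr5 (0.447), Eno3 (0.490) and Krt80 (0.530), compare with 0.686 for a flat gene. These values describe likeness over arrays that share their group structure, and 3962 to 5826 genes were closer than a flat gene to Meis1, Pbx3, Myb or Mef2c in spleen, as were 2735 to Pbx3 in marrow.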

How the data were processed

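Gene expression was measured with biotin-labelled RNA on a mouse Affymetrix array in 15 bone marrow and 14 spleen samples. The deposited values are log2 probe set levels, which the authors made by RMA, and affy and limma are named beside it, per the submitters' processing notes; their versions, any filter and a build are not given in the sources used here. The array medians of the 2 tissues differ, so tissues were kept apart. Probe sets were named through the platform annotation: 20393 of 22690 had 1 symbol, 691 had more than 1, and 1606 had no entry. The brightest probe set in the tissue stood for its gene, with dim probe sets kept.

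The 4 groups of a tissue entered 1 linear model (limma 3.58.1, R 4.3.3), with Benjamini-Hochberg adjustment over 12394 genes and a threshold of 0.05. Values of single probe sets came from the same model fitted and adjusted over all 22690 probe sets. The contrast between tissues came from 1 fit over 29 arrays and 8 groups. Groups came from the labels, which name biological replicates but link no mice. The 5 genes were named throughout, with up to 4 genes of each list by smallest p and the 3 most alike genes. The genes, lists, tests and alternatives were chosen with earlier results of these data known. The fits were tested on simulated data. Alternatives covered normalization, dim probe sets, probe sets per gene, arrays fitted together, eBayes options, array weights, replicate block, Gapdh, Xist and months as covariates, and each array left out. Leaving out 3 arrays with pancreas RNA was added after seeing the data. No 2 arrays were identical. Figures were drawn with matplotlib 3.10.9.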

Additional observations from a re-analysis of the deposited data

Results flagged for a closer look

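Mef2c stood at 10.83 in transition marrow 1, apart from the other transition marrows, the nearest of which was at 11.39. The gap was 0.877 of the range of the group, over Dixon's critical value for 4 arrays. Such gaps were looked for in 20 sets of values, each of 1 gene in 1 group of 4 or 5 arrays, where chance gives about 1 in 20. The sets of a group share its arrays.

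The response to the fusion differed between tissues for Myb, by 1.41 ± 0.27 on the log2 scale (spleen minus marrow, adjusted p = 0.00085 by limma), with 9 of 9 fusion spleens above every wild-type spleen (as in 6.21% of all genes) and 5 of 11 fusion marrows above every wild-type marrow (24.3% of all genes had at least as many). It differed for Mef2c by -1.22 ± 0.24 (adjusted p = 0.00095 by limma), with 9 of 9 fusion spleens below every wild-type spleen (as in 6.66% of all genes) and 7 of 11 fusion marrows above every wild-type marrow (14.4% had at least as many). The Mef2c value takes each tissue from a different probe set. With the probe set that is brightest in spleen used in both tissues it was -0.96 ± 0.32 and not called (adjusted p = 0.053 by limma, over all probe sets rather than genes).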

How the results depend on the processing

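Of 1680 values of the 5 genes under an alternative, 1611 kept their direction and side of the threshold. Another 38 gained a call, 9 lost one and 22, uncalled, changed sign. Sign changes that moved a value by under 1 SE counted as kept. Meis1, Myb and Pbx3 over all fusion spleens and Mef2c there were called under every alternative that gave a value, as was Myb between tissues (1.11 to 1.58). The number of the 5 genes called in spleen became 5 where Flt3 gained a call: in early spleen with only the groups compared (18.7% of all genes called) or array weights (46%), in progression with array weights (30.4%) and in terminal spleen with 1 fit over all arrays (29.8%) or array weights (41.5%). With 1 fit over all arrays or with array weights the number called was 2 in proliferation, 1 in transition, 1 in senescence and 2 over all fusion marrow. Of all genes the 1 fit called 0.799%, 0.613%, 0.0807% and 1.64% in these comparisons and array weights 9.85%, 16%, 0.557% and 15.1%, against 0.282%, 0.42%, 0.0484% and 0.662% as reported. Array weights called 1 (Mef2c) in terminal against early spleen (28% of all genes). Fitting only the groups compared (1.01%), or the Gapdh covariate (0.436%), called 1 in proliferation. Leaving out arrays gave 0 to 1 in transition (1 without transition marrow 1, with 5.36% of all genes called), in all fusion marrow and in terminal against early spleen. Without the arrays with pancreas RNA, early spleen had 2 (5.19% of all genes), and with the replicate block also 2 (6.66%), since Pbx3 (0.94, adjusted p = 0.051 by limma) and Mef2c (-0.80, 0.10) lost their calls there, as did Mef2c in progression (-0.91, 0.060). Deviations of same-numbered arrays correlated by -0.43 to 0.55 in marrow (median 0.09, others -0.02) and by -0.32 to 0.23 in spleen (0.01, others -0.01). Pairing was unclear in marrow. Flt3 over all fusion spleens (0.43 to 0.65) gained a call under 9 of 26 alternatives, among them without progression spleen 2 or 3 or terminal spleen 1 or 3, and Meis1 between tissues (0.48 to 0.67) under 8 of 38.

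Signs changed under array weights for Flt3 in transition against wild type (-0.0705) and Meis1 in transition against proliferation (0.10). With months of tamoxifen as covariate they changed in terminal against progression for Meis1 (-0.36) and Flt3 (-0.27) and in terminal against early for Meis1 (-0.30) and Flt3 (-0.19). Other probe sets of Mef2c turned it in transition (-0.0795) and all fusion marrow (-0.12 and -0.11), in proliferation (-0.11), in transition against proliferation (0.25) and in progression against early spleen (0.22), and another Myb probe set gave 0.25 in terminal against early spleen. With single arrays left out, Myb ran from -0.56 to 0.0102 in senescence against wild type, from -0.25 to 0.15 in progression against early and from -0.20 to 0.14 in terminal against progression spleen. Mef2c ran from -0.28 to 0.17 in senescence against wild type. Meis1 ran from -0.00025 to 0.41 in senescence against transition and from -0.18 to 0.23 in senescence against proliferation. Flt3 ran from -0.19 to 0.33 in progression against early, from -0.36 to 0.40 in terminal against progression and from -0.20 to 0.42 in terminal against early spleen. The cause of these changes was not tested.

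Genes called over all genes numbered 35 in proliferation (8 to 1221 under the alternatives), 52 in transition (14 to 1979), 6 in senescence (1 to 69), 82 over all fusion marrow (22 to 1876), 1971 in early (643 to 5699), 2386 in progression (1097 to 3765), 4270 in terminal (2738 to 5139) and 4023 over all fusion spleens (2120 to 6354), 1744 between tissues (934 to 4564), 726 in terminal against progression (139 to 1911), 819 in terminal against early (182 to 3471), 0 in progression against early (0 to 382) and 0 in transition against proliferation (0 to 3). Array weights gave the highest count in every state of marrow against wild type.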
